A study of Mus musculus with 7 samples.

Results

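The HoxC cluster is described here gene by gene in skin tumours of 2 mouse genotypes: the 9 genes Hoxc4, Hoxc5, Hoxc6, Hoxc8, Hoxc9, Hoxc10, Hoxc11, Hoxc12 and Hoxc13, of 55423 features in the count table. The 9 genes were chosen by name and position in the cluster, with their measured levels in the same 6 tumours already known, so that every value of a member between the genotypes below is a description, and counts of members called are given beside the share of all genes with nothing read from them. The tumours were cutaneous squamous cell carcinomas (cSCC), sequenced in bulk after ribosomal RNA was depleted. In Ivl:BRAFV600E mice a tamoxifen-inducible Cre recombinase driven by the involucrin promoter turns on the BRAFV600E oncogene in IVL+ cells, the progenitor-biased population of the epidermis. Ivl:BRAFV600E-SOX2LSL mice carry the same alleles and, in addition, a recombinable allele that expresses SOX2 with an EGFP reporter, so that the BRAF oncogene and the tamoxifen are common to both groups. Mice were 7 to 10 weeks old when tamoxifen was put on the skin, and tumours were kept to the clinical endpoint. The tumours used here are RBAV23-4g (female), RBAV25-3j (female) and RBAV27-2c (male) of the Ivl:BRAFV600E genotype and RBBD12-1j (male), RBBD5-2a (male) and RBBD9-2f (female) of the Ivl:BRAFV600E-SOX2LSL genotype. Each is named by its mouse.

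Several properties differ together with genotype in this design. Every Ivl:BRAFV600E-SOX2LSL mouse was collected sooner after induction than every Ivl:BRAFV600E mouse, and time since induction cannot be told apart from genotype. Lesions of Ivl:BRAFV600E mice arose on several parts of the body, and the body site of each sequenced tumour is not given in the sources used here, so that site cannot be told apart from genotype either. In bulk RNA, fewer cells of a type and less RNA per cell cannot be told apart. Tumours held between 23565432 and 31152826 counts on genes, and a level is given as CPM, the count divided by the library size and set to a common 1e6 counts, after scaling by the trimmed mean of M values (TMM). A level of 3 counts, the limit that a count of 0 allows, was 0.0839 to 0.143 CPM per tumour. The transgene was read in the libraries labelled with it. Sox2 was at 0.716, 0.508 and 0.238 CPM in the Ivl:BRAFV600E tumours and at 182, 155 and 158 CPM in RBBD12-1j, RBBD5-2a and RBBD9-2f, and EGFP had 0 reads in all 3 Ivl:BRAFV600E tumours and between 3132 and 4957 reads in the others.

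Hox genes encode homeodomain transcription factors that give cells their position along the body axis and the limbs. They lie in 4 clusters, HoxA to HoxD, and their order on the chromosome follows the order of the body regions in which they are used: low-numbered genes such as Hoxc4 act anteriorly, and high-numbered genes such as Hoxc13 act posteriorly and distally. Adult skin cells retain much of this pattern, and fibroblasts of different body sites can be told apart by the Hox genes they express. Hoxc13 has a second role in skin, in the hair follicle and the nail, where it drives hair keratin genes.

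On GRCm38 the cluster spans chr15:102921103-103036852 (115.75 kb), with all 9 genes on the plus strand and Hoxc13 first. Between its ends the GENCODE annotation also places 7 transcripts that are not members, among them the long non-coding RNA Hotair on the minus strand between Hoxc12 and Hoxc11, and the microRNA genes Mir196a-2, between Hoxc10 and Hoxc9, and Mir615, which lies within Hoxc5. Exons are shared by Hoxc10 and Hoxc5 alone among the members. An annotated Hoxc5 transcript begins inside Hoxc10, which stretches the Hoxc5 gene over chr15:102967443-103017429, and 166 bases are exonic in both genes, 8.70% of the exonic length of Hoxc10 and 5.37% of that of Hoxc5. Reads from these bases cannot be assigned to 1 of the 2 genes by position, and how the authors' counting treated them is not stated. In all other members no exonic base was shared.

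**Figure D1:**
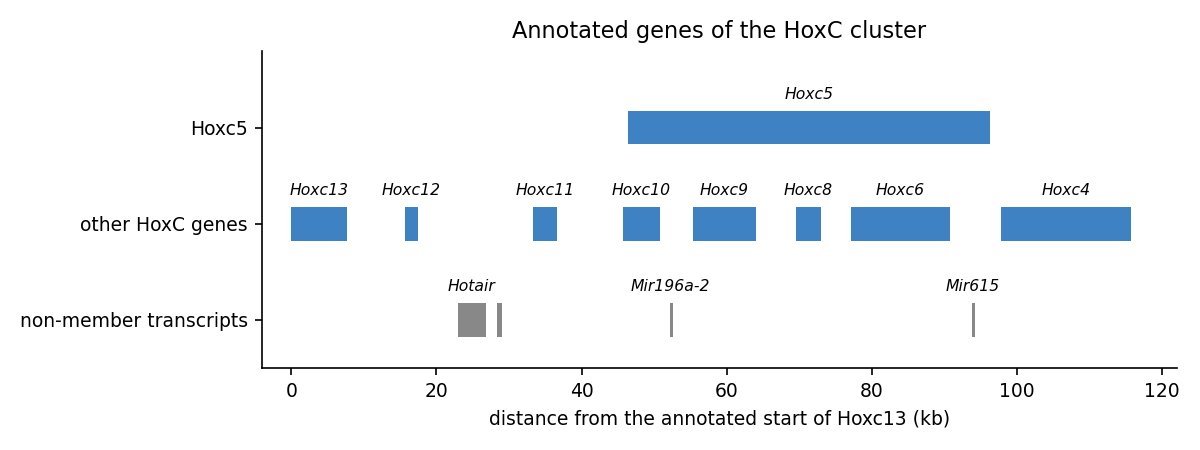
Annotated genes of the HoxC cluster, drawn to scale by distance in kb from the annotated start of Hoxc13. Blue bars are the 9 members and grey bars the other annotated transcripts inside the cluster, and the bar of Hoxc5 reaches back over Hoxc6, Hoxc8 and Hoxc9 into Hoxc10.

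The homeobox, the 180 bases that encode the DNA-binding homeodomain, lies in a single exon of each member. It is shown for Hoxc13, which had reads in all 6 tumours, for Hoxc11 and Hoxc10, which were among the 3 highest members per kb of exon in each Ivl:BRAFV600E tumour and had at most 1 read in any Ivl:BRAFV600E-SOX2LSL tumour, and for Hoxc8, the highest member of RBBD12-1j. The sequences were read from the annotated transcripts at chr15:102927210-102927389, chr15:102956480-102956659, chr15:102970848-102971027 and chr15:102992571-102992750, plus strand, each in exon 2 of 2, and run 5′ to 3′. Capitals mark bases 142 to 159, the codons of residues 48 to 53 of the homeodomain (a tryptophan, a phenylalanine, a glutamine, an asparagine and a pair of arginines), the core of the helix that reads the DNA.
Hoxc13: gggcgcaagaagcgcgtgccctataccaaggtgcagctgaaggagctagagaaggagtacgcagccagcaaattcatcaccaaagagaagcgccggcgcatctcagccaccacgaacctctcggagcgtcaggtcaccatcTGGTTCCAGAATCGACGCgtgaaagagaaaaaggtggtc
Hoxc11: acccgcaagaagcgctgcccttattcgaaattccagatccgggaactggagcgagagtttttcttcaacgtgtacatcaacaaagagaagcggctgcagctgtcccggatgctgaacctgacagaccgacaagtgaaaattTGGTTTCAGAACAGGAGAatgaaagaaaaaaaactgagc
Hoxc10: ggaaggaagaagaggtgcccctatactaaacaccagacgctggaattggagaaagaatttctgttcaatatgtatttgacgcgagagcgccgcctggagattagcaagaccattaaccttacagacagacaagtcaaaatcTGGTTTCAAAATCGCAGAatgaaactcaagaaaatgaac
Hoxc8: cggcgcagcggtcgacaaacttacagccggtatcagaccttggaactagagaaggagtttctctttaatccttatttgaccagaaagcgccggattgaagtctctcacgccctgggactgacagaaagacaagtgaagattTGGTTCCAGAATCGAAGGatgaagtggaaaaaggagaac

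The capitals encode the same 6 residues in each of these sequences, while the flanking bases differ. Over the 36 pairs within the cluster, identity of the homeobox ran from 48.3% (Hoxc5 and Hoxc13) to 77.8% (Hoxc6 and Hoxc5), and Hoxc10 and Hoxc11 were identical at 67.2% of bases. Some homeoboxes of other clusters were closer: Hoxc11 and Hoxa11 shared 86.7% of bases, and Hoxc10 and Hoxd10 82.8%. The longest identical run between a HoxC homeobox and that of any Hox gene compared was 31 bases (Hoxc5 with Hoxa9 and Hoxc9 with Hoxa9), shorter than a read of these libraries. Of all runs of 50 bases in the annotated transcripts of a member, none occurred in another gene for Hoxc4, Hoxc6, Hoxc11, Hoxc12 and Hoxc13. The share was 0.432% for Hoxc8, 1.44% for Hoxc9, 3.92% for Hoxc5 and 6.40% for Hoxc10, the last pair through the exon they share with each other.

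The 3 Ivl:BRAFV600E tumours expressed the whole cluster, with the highest levels at its posterior end. All 9 members had reads in each of them, from 31 reads (Hoxc5 in RBAV27-2c) to 591 (Hoxc11 in RBAV25-3j), and the summed level was 63.7, 70.2 and 64.9 CPM in RBAV23-4g, RBAV25-3j and RBAV27-2c. Compared per kb of exon, so that genes of different length can be set side by side, Hoxc11 was highest in each, at 9.53, 13.5 and 10.4 CPM per kb. Hoxc10 (6.41, 7.28 and 5.28 CPM per kb) and Hoxc13 (6.78, 4.75 and 6.62) followed and exchanged places between tumours, so that these neighbours in the order did not differ beyond their spread. Next came Hoxc12, with a mean of 3.06 CPM per kb, and Hoxc9, with 1.85. The anterior members closed the order, with means of 1.20 for Hoxc6, 0.846 for Hoxc8, 0.825 for Hoxc4 and 0.548 CPM per kb for Hoxc5, and Hoxc8 and Hoxc4 exchanged places between tumours. The coefficient of variation over the 3 tumours ranged from 3.47% (Hoxc6) to 23.0% (Hoxc12).

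The 3 Ivl:BRAFV600E-SOX2LSL tumours showed another profile, and they fell into 2 kinds. RBBD5-2a and RBBD9-2f had reads on 3 members only, Hoxc4, Hoxc5 and Hoxc13, and 0 reads on each of the 6 genes from Hoxc6 to Hoxc12. RBBD12-1j had reads on 7 members, high at the anterior end and nearly none from Hoxc10 to Hoxc12. The summed level of the cluster was 39.0 CPM in RBBD12-1j, 4.41 in RBBD5-2a and 4.70 in RBBD9-2f.

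**Figure D2:**
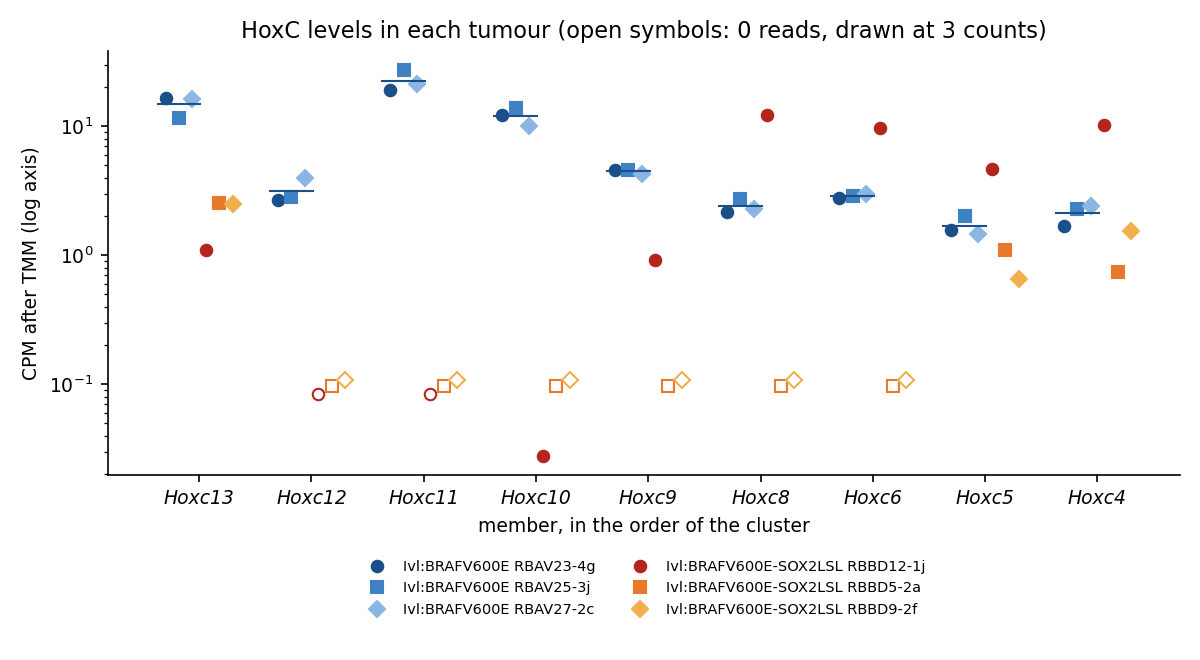
Level of each HoxC member in CPM after TMM (log axis) in the 6 tumours, in the order of the cluster, with a line at the mean of the 3 Ivl:BRAFV600E tumours (n = 3). Open symbols are tumours with 0 reads, drawn at the level of 3 counts, so the single Hoxc10 read of RBBD12-1j sits below them. From Hoxc13 to Hoxc9 all Ivl:BRAFV600E-SOX2LSL tumours lie below all Ivl:BRAFV600E tumours, and from Hoxc8 to Hoxc4 RBBD12-1j lies above them.

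Of the posterior members, Hoxc11, which acts with Hoxc10 in hindlimb patterning, had 565, 591 and 444 reads in RBAV23-4g, RBAV25-3j and RBAV27-2c (19.3, 27.3 and 21.1 CPM; 22.6 ± 4.21, SD, n = 3). It had 0 reads in RBBD12-1j, RBBD5-2a and RBBD9-2f. Against the highest 3-count level among these tumours, it was at least 208-fold lower in the Ivl:BRAFV600E-SOX2LSL tumours.

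Hoxc10, known for its part in hindlimb development, was at 12.2, 13.9 and 10.1 CPM in the Ivl:BRAFV600E tumours (12.1 ± 1.92, SD, n = 3). RBBD12-1j had 1 read and the other 2 Ivl:BRAFV600E-SOX2LSL tumours had 0. Over the 872 reads of 1 genotype and the 1 read of the other, the ratio of the levels was 1142, with an exact 95% interval of 204 to 45152 that covers counting error only. Hoxc5, which shares an exon with it, had 168 reads in RBBD12-1j. When the counts of both genes were summed into 1 feature, the log2 fold change of the sum was -2.66 (SE 0.69) and the sum was not called.

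Hoxc12, which lies between Hoxc13 and Hotair, was the least abundant of the posterior members per kb of exon. It was at 2.66, 2.82 and 3.99 CPM in RBAV23-4g, RBAV25-3j and RBAV27-2c (3.16 ± 0.73, SD, n = 3), from 78, 61 and 84 reads. All 3 Ivl:BRAFV600E-SOX2LSL tumours had 0 reads, at least 29.1-fold lower.

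Hoxc13, the hair and nail factor, was the only posterior member with reads in every tumour. It was at 16.7, 11.7 and 16.3 CPM in the Ivl:BRAFV600E tumours (14.9 ± 2.78, SD, n = 3) and at 1.09, 2.56 and 2.49 CPM in RBBD12-1j, RBBD5-2a and RBBD9-2f (2.05 ± 0.83, SD, n = 3). The groups did not overlap, and the fitted log2 fold change was -2.86 (SE 0.36). RBBD12-1j was the lowest of all 6 tumours here, although it was the highest of the 6 for Hoxc4 to Hoxc8. Without it the log2 fold change was -2.56 (SE 0.23).

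Hoxc9 marks the turn in the profile. This thoracic Hox gene was at 4.60, 4.62 and 4.23 CPM in the Ivl:BRAFV600E tumours (4.48 ± 0.22, SD, n = 3), at 0.923 CPM in RBBD12-1j (33 reads), and at 0 reads in RBBD5-2a and RBBD9-2f. The groups did not overlap, and the fitted log2 fold change was -3.78 (SE 1.24), a value that rests on RBBD12-1j. Against RBBD5-2a and RBBD9-2f alone, the level was lower by at least 41.4-fold.

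For Hoxc8 and Hoxc6, genes of the thoracic region, the Ivl:BRAFV600E tumours lay between the 2 kinds of Ivl:BRAFV600E-SOX2LSL tumour. Hoxc8 was at 2.18, 2.73 and 2.28 CPM in RBAV23-4g, RBAV25-3j and RBAV27-2c, at 12.3 CPM in RBBD12-1j, and at 0 reads in RBBD5-2a and RBBD9-2f. Hoxc6 was at 2.80, 2.86 and 2.99 CPM, at 9.68 CPM in RBBD12-1j, and again at 0 reads in the other 2. RBBD12-1j was therefore above the Ivl:BRAFV600E mean by 5.13-fold for Hoxc8 and 3.36-fold for Hoxc6, and above RBBD5-2a and RBBD9-2f by at least 113-fold and at least 89.3-fold. RBBD5-2a and RBBD9-2f were below the Ivl:BRAFV600E mean by at least 22.1-fold for Hoxc8 and at least 26.6-fold for Hoxc6. A fitted fold change over all 3 tumours, 0.78 (SE 1.73) for Hoxc8 and 0.17 (SE 1.67) for Hoxc6 on the log2 scale, averaged these opposite values and described neither kind.

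Hoxc5 and Hoxc4, the most anterior genes of the mouse cluster, had reads in all 6 tumours. Hoxc5 was at 1.57, 2.03 and 1.47 CPM in the Ivl:BRAFV600E tumours and at 4.70, 1.10 and 0.650 CPM in RBBD12-1j, RBBD5-2a and RBBD9-2f. Hoxc4 was at 1.67, 2.26 and 2.42 CPM and at 10.3, 0.745 and 1.55 CPM in the same order. RBBD12-1j was the highest tumour for both genes, 2.78-fold and 4.86-fold above the Ivl:BRAFV600E mean, and the other 2 lay below each Ivl:BRAFV600E tumour. The log2 fold change over all tumours was 0.35 (SE 0.70) for Hoxc5 and 0.99 (SE 0.88) for Hoxc4, and without RBBD12-1j it turned to -0.94 (SE 0.38) and -0.88 (SE 0.41).

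Read as counts, 4 of the 9 members were below an adjusted p of 0.05 in edgeR's quasi-likelihood test and lower in Ivl:BRAFV600E-SOX2LSL tumours (Hoxc10 to Hoxc13), where 1.51% of 24433 tested genes were called lower, and 0 were called higher, where 2.39% were. None was called higher by DESeq2 or limma or had an unadjusted p below 0.05 in that direction. The groups did not overlap, in the lower direction, for 5 members (Hoxc9 to Hoxc13), against 16.0% of tested genes. Without RBBD12-1j, 7 members were called lower (Hoxc6 and Hoxc8 to Hoxc13), against 3.10% of the genes then tested, and all 9 were lower with no overlap, against 20.5% of those genes. Without RBAV23-4g or without RBAV25-3j, 2 were called lower (Hoxc10 and Hoxc11), against 0.0417% and 0.0703% of the genes then tested. Without RBAV27-2c, 3 were (Hoxc10 to Hoxc12), against 0.223%. The members were selected on this contrast, and nothing is read from these counts. All 9 passed the filter on low counts and Hoxc10, Hoxc11 and Hoxc12 did so through the Ivl:BRAFV600E tumours alone. The median log2 fold change over the 9 was -2.86, beside 0.04 over all genes tested.

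The proportions within the cluster do not depend on how libraries are scaled against each other. Hoxc10 to Hoxc12 together gave 53.7% (exact 95% interval 51.4 to 56.0), 62.7% (60.2 to 65.1) and 54.2% (51.5 to 56.9) of the HoxC reads in RBAV23-4g, RBAV25-3j and RBAV27-2c. In RBBD12-1j they gave 0.0717% (0.00182 to 0.399) of 1394 reads. RBBD5-2a had 0 of 136 and RBBD9-2f 0 of 130 such reads, which allows shares of up to 2.21% and 2.31% at 3 reads of the total (upper ends of the exact 95% interval 2.68% and 2.80%). These limits lie below the share of Hoxc10 to Hoxc12 in each Ivl:BRAFV600E tumour.

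Shares within the cluster sum to the whole, so that a share can rise while the level falls. Hoxc4 to Hoxc6 gave 9.48%, 10.2% and 10.6% of HoxC reads in the Ivl:BRAFV600E tumours, and 63.3%, 41.9% and 46.9% in RBBD12-1j, RBBD5-2a and RBBD9-2f. Their summed level was 6.04, 7.16 and 6.89 CPM in the former and 24.7, 1.85 and 2.20 CPM in the latter, so the higher share went with a higher level in RBBD12-1j and with a lower level in the other 2. Hoxc8 and Hoxc9 gave 10.7%, 10.5% and 10.0% in the Ivl:BRAFV600E tumours, 33.9% in RBBD12-1j and none in RBBD5-2a and RBBD9-2f. Hoxc13 gave 26.2%, 16.6% and 25.1% in the Ivl:BRAFV600E tumours, 2.80% in RBBD12-1j, and 58.1% and 53.1% in RBBD5-2a and RBBD9-2f, where it was the highest member per kb of exon although its level was lower than in any Ivl:BRAFV600E tumour. Intervals cover counting error only, because reads without molecular identifiers are not independent molecules.

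**Figure D3:**
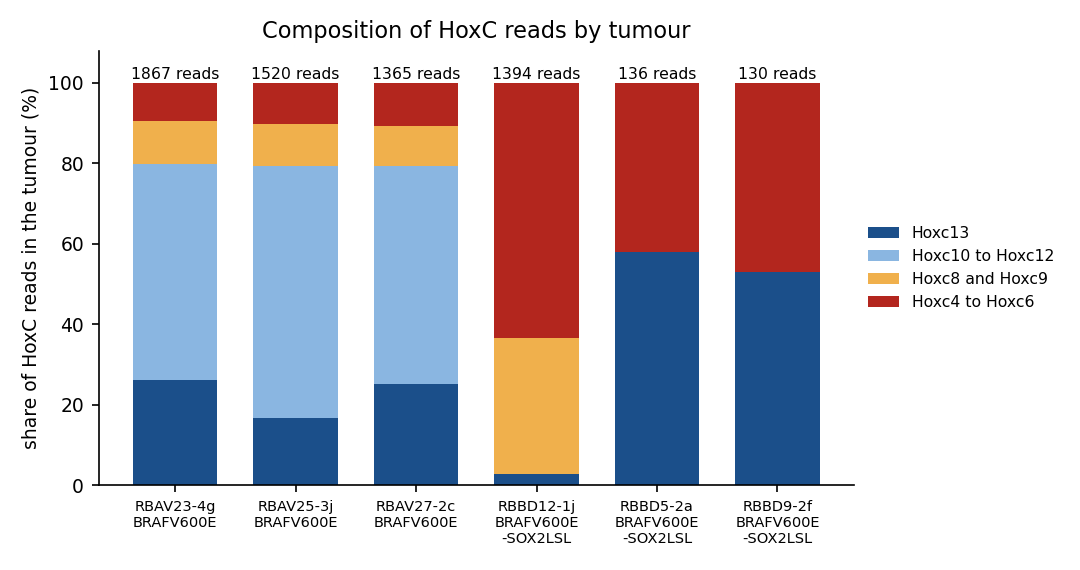
Share of HoxC reads (%) given by 4 stretches of the cluster in each tumour, with the number of HoxC reads above each bar. The 3 Ivl:BRAFV600E tumours have 53.7% to 62.7% from Hoxc10 to Hoxc12, a stretch that is empty or a single read in the 3 Ivl:BRAFV600E-SOX2LSL tumours, and RBAV25-3j has a smaller share of Hoxc13 (16.6%) than RBAV23-4g (26.2%) and RBAV27-2c (25.1%).

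Transcripts inside the cluster that are not members were tested in the same fit. Hotair (chr15:102944062-102947730, minus strand), a non-coding RNA studied as a regulator of Hox genes, was at 1.33, 1.52 and 1.66 CPM in the Ivl:BRAFV600E tumours and had 0 reads in the others, at least 13.9-fold lower (edgeR quasi-likelihood, adjusted p = 0.0138). It passed the filter on low counts through the Ivl:BRAFV600E tumours alone. Its adjusted p was 0.0934 without RBAV23-4g, 0.0683 without RBAV25-3j and 0.0590 without RBAV27-2c. It was the 1 called, lower, of 6 tested among 13 annotated features that are not members and lie in the cluster or within 100 kb of it, with a median log2 fold change of -3.90 over the 6. Gm27535 and Gm28011, short RNAs between Hotair and Hoxc11, had 3, 3 and 9 and 2, 5 and 2 reads in the Ivl:BRAFV600E tumours and 0 in all others, and did not pass the test. Beyond the Hoxc4 end, 5730585A16Rik had 11, 4 and 8 reads in the Ivl:BRAFV600E tumours and 8, 0 and 0 reads in RBBD12-1j, RBBD5-2a and RBBD9-2f. Gm28265, which overlaps Gm10830 on the opposite strand, had 5, 3 and 5 against 2, 0 and 0 reads, and D930007P13Rik had 6, 1 and 0 against 1, 0 and 0, both short of the threshold.

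A microRNA of the cluster has matches in the transcript of a member. MicroRNA-196a is known to repress Hoxc8 and other Hox transcripts through their 3′ untranslated regions. Its mature form is encoded by Mir196a-2 at chr15:102973365-102973386, plus strand, and is printed here, from RefSeq on GRCm38.p6, with the seed (bases 2 to 8) in capitals, above the matching stretches of Hoxc8 with the complement of the seed in capitals.
miR-196a-5p: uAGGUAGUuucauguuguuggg
Hoxc8, chr15:102992980-102993006: cacaactctaACTACCTgtcagatagt
Hoxc8, chr15:102993737-102993763: tctttaacatACTACCTaaagggaacc

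The letters ACTACCT, searched on the transcript's strand, occurred in the 3′ untranslated region of 1 of the 9 members, Hoxc8, at the 2 places above, and in 6.15% of 20846 annotated genes. A match is a description and not evidence of regulation. Mature microRNAs are too short for these libraries to measure. Reads on the Mir196a-2 hairpin gene numbered 2, 0 and 2 in the Ivl:BRAFV600E tumours and 0 in the others, and Mir615 had 1 read in RBAV23-4g and 0 elsewhere, too few for a test.

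The paralogues of the other clusters are genes of the same number that share descent with the members. Of the 8 paralogues of groups 10 to 13, 6 were tested, 1 was called lower and 0 higher, with a median log2 fold change of -4.70. The called gene, Hoxa13, which shapes the hand, foot and genital region, was at 1.19, 0.739 and 0.998 CPM in the Ivl:BRAFV600E tumours and had 0 reads in all 3 Ivl:BRAFV600E-SOX2LSL tumours, at least 9.02-fold lower (edgeR quasi-likelihood, adjusted p = 0.0238). Like Hotair, it passed the filter only through the group where it was high. Its adjusted p was 0.123 without RBAV23-4g, 0.0815 without RBAV25-3j, 0.0669 without RBAV27-2c and 0.0661 with sex as a covariate. Hoxa11 had 5, 2 and 13 reads in the Ivl:BRAFV600E tumours against 0 reads in each of the others, and Hoxd11 had 18, 3 and 1 reads against 0, 0 and 1, and both missed the threshold. Hoxd10 lay the other way, at 0.273, 0.139 and 0.285 CPM against 0.448, 0.389 and 0.470, and was not called either.

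Of the 14 paralogues of groups 4 to 9, all were tested and 0 were called in either direction by edgeR at an adjusted p of 0.05. At an unadjusted p below 0.05, 3 were higher and 0 lower, and DESeq2 called 2 and limma 1 higher. Their median log2 fold change was 2.39, and the value rests on RBBD12-1j. Their summed level was 5.25, 5.45 and 6.27 CPM in the Ivl:BRAFV600E tumours, 6.41 and 6.79 CPM in RBBD5-2a and RBBD9-2f, and 64.8 CPM in RBBD12-1j. RBBD12-1j was the highest of the 6 tumours for 12 of the 14, all but Hoxd4 and Hoxd9. The share of all genes that were highest in this tumour was not taken, so nothing is read from that count. Hoxa5 was at 13.3 CPM there and at most 0.583 CPM elsewhere, Hoxa7 at 12.7 against at most 0.239, and Hoxb4 at 7.02 against at most 1.06. Hoxb6, at 5.26 CPM, and Hoxb7, at 5.74 CPM, had 0 reads in RBBD5-2a and RBBD9-2f. The tumour with high Hoxc4 to Hoxc8 also had high levels of their neighbours by number in HoxA and HoxB. In 2 genes the other Ivl:BRAFV600E-SOX2LSL tumours also lay above every Ivl:BRAFV600E tumour. Hoxd8 was at 5.23, 3.01 and 4.04 CPM in RBBD12-1j, RBBD5-2a and RBBD9-2f, against 1.26, 1.76 and 2.28 CPM. Hoxa4 was at 0.783, 0.389 and 0.289 CPM in the same order, against 0.0341, 0.0462 and 0 CPM. Neither was called.

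**Figure D4:**
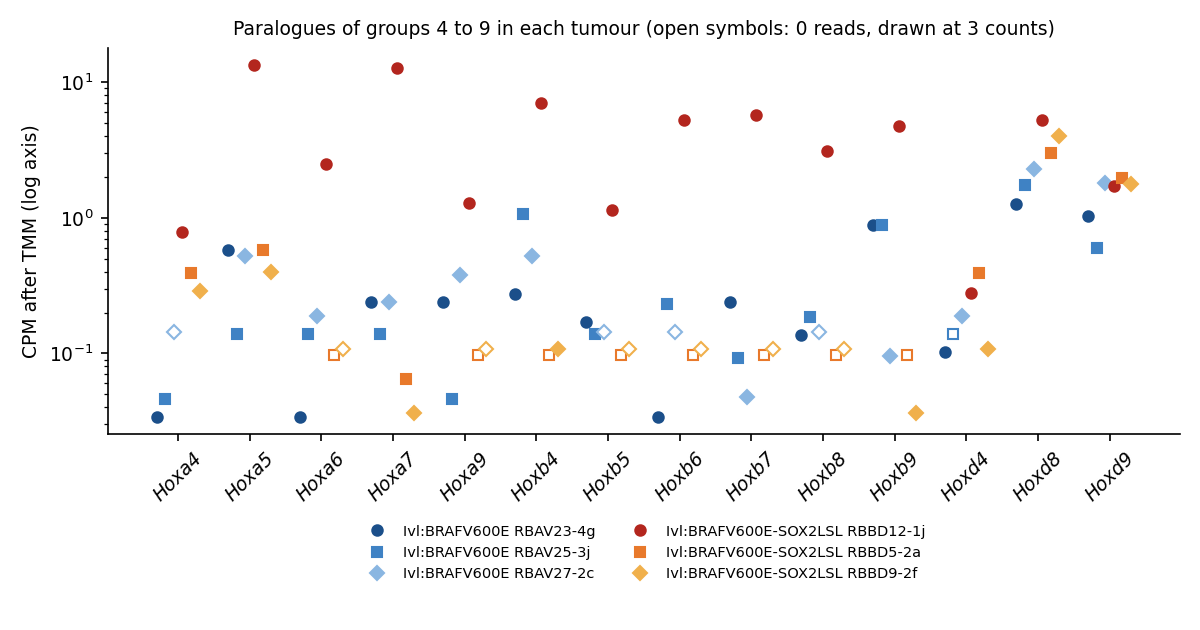
Level in CPM after TMM (log axis) of the 14 paralogues of groups 4 to 9 in the HoxA, HoxB and HoxD clusters in each tumour, with open symbols for 0 reads, drawn at the level of 3 counts. RBBD12-1j is the highest tumour for 12 of the 14 genes, with Hoxa5 at 13.3 CPM and Hoxa7 at 12.7 CPM.

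Among proteins that work with Hox factors or set their state, few genes passed the test. Of 9 TALE cofactors, the homeodomain partners of Hox proteins, 1 was called, Meis2, which was higher at 14.0, 11.9 and 15.2 CPM in the Ivl:BRAFV600E-SOX2LSL tumours against 4.50, 4.71 and 4.47 (log2 fold change 1.59, SE 0.18, adjusted p = 0.0125 by edgeR). Its adjusted p was 0.0914 without RBAV23-4g and 0.0573 without RBAV25-3j. Among 23 Polycomb repressors, which keep unused Hox genes silent, Ezh2, the methyltransferase of Polycomb complex 2, was at 21.5, 17.5 and 18.6 CPM against 22.2, 24.6 and 24.7 and was not called. Of 15 Trithorax activators, which keep Hox genes active, 0 were called by edgeR, DESeq2 or limma (2 higher and 0 lower by edgeR at an unadjusted p below 0.05), and Kmt2a was at 85.3, 76.9 and 97.3 CPM against 147, 103 and 104. The median log2 fold changes of the 3 lists were 0.31, 0.04 and 0.09.

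Other factors of body position were read beside the cluster. Of 19 regional identity factors 16 were tested, and 1 was called lower and 0 higher, with a median log2 fold change of -0.05. Emx2, a homeobox gene of the shoulder girdle, forebrain and urogenital tract, was at 9.62, 4.43 and 7.36 CPM in the Ivl:BRAFV600E tumours and at 0.336, 0.777 and 0.686 CPM in the others (log2 fold change -3.57, SE 0.44, adjusted p = 0.0167 by edgeR). Its adjusted p was 0.0914 without RBAV23-4g and 0.0546 without RBAV27-2c. En1, which marks the ventral skin of the limb, was at 14.0, 47.0 and 14.1 CPM against 3.53, 0.583 and 0.325 and missed the threshold (adjusted p = 0.0618). Pitx1, a hindlimb and oral factor, was at 25.6, 29.8 and 31.4 CPM against 43.7, 32.4 and 41.9, and Tbx4 and Tbx5, hindlimb and forelimb factors, stayed at or below 1.19 CPM in all tumours, with neither called.

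Of 18 hair shaft genes in the table, which include keratin targets of Hoxc13, 0 were called by edgeR, DESeq2 or limma, and 2 were lower at an unadjusted p below 0.05 by edgeR. Their summed level was 543, 66.8 and 329 CPM in RBAV23-4g, RBAV25-3j and RBAV27-2c and 37.5, 77.9 and 156 CPM in RBBD12-1j, RBBD5-2a and RBBD9-2f. The sums overlapped between the groups, and the median log2 fold change was -2.25, with Padi3 (0.51) and S100a3 (0.32) the other way. Krt36 was at 52.5, 3.37 and 2.23 CPM in the Ivl:BRAFV600E tumours against 0.0839, 0.227 and 0.433, and was not called. RBAV25-3j combined 11.7 CPM of Hoxc13 with Krt33b, Krt34 and Krt35 at 0 reads.

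The genes outside the 100 kb window most like Hoxc10, by Pearson correlation of log2 CPM (prior count 2) over the 6 tumours, were Gm28319 (0.999), 4930471C06Rik (0.997), Gm14935 (0.997), Gm15964 (0.996) and Lap3 (0.996). The points share 2 groups of 3 libraries, so that any gene with tight groups scores high. Gm28319, 4930471C06Rik and Gm14935 had 0 reads in all 3 Ivl:BRAFV600E-SOX2LSL tumours, at 0.205, 0.231 and 0.190 CPM, at 1.33, 1.02 and 0.998 CPM and at 0.205, 0.231 and 0.238 CPM in the others. Lap3, a leucine aminopeptidase, was at 58.0, 56.8 and 56.3 CPM against 41.7, 40.6 and 39.1, a far smaller difference in the same direction. Within the cluster the coefficient with Hoxc10 was 0.999 for Hoxc11, 0.997 for Hotair and 0.994 for Hoxc12, then 0.945 for Hoxc13, 0.901 for Hoxc9 and -0.03 for Hoxc4.

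Markers of the cells in these tumours also differed between tumours. Keratinocyte markers (18 genes, none called) summed to 129980, 214050 and 181880 CPM in the Ivl:BRAFV600E tumours and to 30435, 96171 and 80058 CPM in RBBD12-1j, RBBD5-2a and RBBD9-2f, and Krt5 was at 2371 to 3900 CPM in all 6. The sum does not stand for every marker in it. Mean levels were 40648 against 8632 CPM for Krt1 and 32351 against 3878 for Krt10, but 282 against 301 for Trp63 and 513 against 818 for Itga6. Skeletal muscle markers (14 of 16 tested called higher by edgeR, 15 by DESeq2 and 6 by limma, of 18 in the list, with each of the 14 called in 2 to 5 of the 6 fits that left out 1 tumour) summed to 8.63 to 12.9 CPM against 281 to 1345 CPM, and Myh4, a fast myosin, was at 0 reads in all 3 Ivl:BRAFV600E tumours. Over all genes tested 2.39% were called higher, and 4 of the 14 (Tnnt3, Casq1, Mb and Myl1) passed the filter on low counts only through the Ivl:BRAFV600E-SOX2LSL tumours, where they were high. Dermal fibroblast markers (15 genes, none called), a cell type known for Hox expression, summed to 2431, 924 and 5541 CPM against 9394, 4447 and 5377 CPM. The HoxC sums of the same tumours, in the same order, were 63.7, 70.2 and 64.9 CPM against 39.0, 4.41 and 4.70 CPM, and RBBD12-1j had the highest fibroblast sum of all 6 and the highest HoxC sum of its genotype. Adipocyte markers (8 genes, none called) were highest in RBBD12-1j, at 123 CPM against 23.7 to 54.0 in the other 5, and Adipoq was at 0 reads in 4 tumours, at 3 reads in RBBD9-2f and at 150 in RBBD12-1j. Of 10 myeloid markers 2 were called higher by edgeR, 6 by DESeq2 and 4 by limma, the 2 in 1 of the 6 fits that left out 1 tumour, with sums of 391 to 1344 against 926 to 2213 CPM, and of 8 endothelial and 8 melanocyte markers none was called, with sums of 175 to 195 against 182 to 213 CPM and 8.96 to 22.0 against 17.7 to 20.5 CPM. In the marker lists with none called by edgeR, the genes with an unadjusted p below 0.05 were 7 lower and 4 higher for keratinocytes, where DESeq2 called 6 and 4 and limma 1 and 3. They were 6 higher for fibroblasts (DESeq2 4, limma 2), 3 higher for adipocytes (DESeq2 1, limma 0), 1 lower and 1 higher for endothelium (DESeq2 and limma 1 lower), and 1 higher for melanocytes (0 by both other tools). The part of these cells in the HoxC differences was not tested.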

How the data were processed

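Skin tumour RNA, depleted of ribosomal RNA, was sequenced. Reads were checked by the authors with FastQC 0.11.8, trimmed with Trim Galore, aligned to GRCm38 by HISAT2 2.1.0 and counted per gene by featureCounts of Subread 1.6.3. They deposited raw read counts per gene, unfiltered and not pooled. The treatment of strand and of multimapping reads is not stated. The columns name mice, and 6 were assigned to genotypes through the list of mice published with the study. The remaining 1 column matched no listed mouse and was not used. It is named like the Ivl:BRAFV600E-SOX2LSL mice, whereas the labels list 1 more tumour of the Ivl:BRAFV600E group than was assigned, and this conflict could not be settled. The names of the mice (RBAV and RBBD) divide wholly by genotype. The comparison planned for 4 against 3 tumours was run on 3 against 3. Whether tumours of a genotype shared a litter is not stated.

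The 24433 genes that reached 5 reads in any 1 tumour were scaled by TMM and tested with edgeR 4.0.16 (R 4.3.3, quasi-likelihood), with p-values adjusted after Benjamini-Hochberg over all of them at 0.05. Fold changes are Ivl:BRAFV600E-SOX2LSL over Ivl:BRAFV600E. Fold bounds divide the mean CPM of the higher group by the highest level of 3 counts among the tumours at 0 reads. Alternatives used DESeq2 1.42.0, limma 3.58.1 (voom with sample weights), other scalings and filters, sex as a covariate, and each tumour left out. On simulated counts edgeR called 82 of 100 genes changed 4-fold and 100 of 100 changed 16-fold. The changed genes were well counted, and no simulated tumour departed from its group. These rates therefore do not describe the test on the members. Positions, exons and transcript sequences came from GENCODE M21, and tables were made with Python 3.11.15 and pandas 2.3.3.

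The members and all gene lists were chosen with earlier results of these data known. Every member was named, and of each companion list the genes past the threshold and those of a defining role. A few genes that the rule covers are left out of the text.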

Additional observations from a re-analysis of the deposited data

How the results depend on the processing

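The members were chosen on this contrast, and how often they were called under the alternatives supports nothing. No paired analysis was possible because the columns of the count table carry no replicate number. Limits are the 3 tumours per genotype and, for Hoxc4 to Hoxc9, RBBD12-1j.

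With limma 7 members were called lower instead of 4, and Hoxc4, Hoxc5, Hoxc6 and Hoxc8 reversed to -0.61, -0.61, -6.41 and -6.08. With sex as a covariate Hoxc5, Hoxc6 and Hoxc8 reversed to -0.20, -1.81 and -1.31. With 1 tumour left out, the range was -0.88 to 1.49 for Hoxc4, -0.94 to 0.78 for Hoxc5, -9.24 to 0.75 for Hoxc6 and -8.97 to 1.36 for Hoxc8 on the log2 scale, and each lowest value, the only one below 0, came without RBBD12-1j. The cause was not tested beyond the tumours left out.

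Over all genes, 369 were called lower and 585 higher, which became 1555 and 2098 with DESeq2, 970 and 1172 with limma, 668 and 1091 with no filter, 560 lower with filterByExpr, and 67 and 161 with sex. On simulated counts with known changes, false calls were 6.67% of all calls for edgeR, 17.1% for DESeq2 and 5.26% for limma. No simulated tumour departed from its group, so these rates need not hold for the tumours here. Leaving out 1 tumour gave 2 to 7 members, 10 to 730 genes lower and 12 to 845 higher.

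DESeq2 called 2 TALE cofactors, 2 regional factors and 2 paralogues of groups 4 to 9 higher, and 2 regional factors and 2 paralogues of groups 10 to 13 lower. Limma called 2 genes of each of the last 2 lists lower, 1 paralogue of groups 4 to 9 higher and 3 neighbours lower. With no filter, 2 regional factors and 1 hair shaft gene were called lower, and 1 regional factor and 1 paralogue of groups 4 to 9 higher. With sex, 0 paralogues of groups 10 to 13 were called. Leaving out 1 tumour gave 0 to 1 TALE cofactors, regional factors and neighbours (higher, higher and lower), and 0 to 2 regional factors and paralogues of groups 10 to 13 lower.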
